A study of Mus musculus with 28 samples.

Results

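The GATA transcription factor genes *Gata1* to *Gata6* were followed through the chromatin lists of day 4 mesodermal cultures. The 6 members were taken by name from the 22367 protein-coding genes of the GENCODE annotation of mm9, and all 6 were found. For each gene, enriched regions were read within 5 kb of the annotated 5′ end (here the TSS), over the gene body and within 50 kb of the TSS. No measured value was used to pick the genes, though earlier results of these data were known when they were chosen.

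GATA factors are zinc finger proteins that bind DNA at sites containing the letters GATA. *Gata1*, *Gata2* and *Gata3* are best known from blood, where *Gata1* directs red cell and megakaryocyte formation, *Gata2* acts in blood stem and progenitor cells and *Gata3* in T cells. *Gata4*, *Gata5* and *Gata6* act in the heart and in endoderm, and *Gata4* and *Gata6* are already used by early cardiogenic mesoderm. Acetylated histone H3 lysine 27 (H3K27ac) marks active promoters and enhancers. Trimethylation of the same residue (H3K27me3) is laid down by the Polycomb repressive complex, of which Suz12 is a core subunit, and is found at silent developmental genes. Brg1 is the ATPase of BAF chromatin-remodeling complexes.

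The study asked how loss of Brg1 changes chromatin while mouse embryonic stem cells (ESCs) become mesoderm. ESCs with floxed *Brg1* alleles and a tamoxifen-activated Cre driven by an Actin promoter (labelled Brg1f/f; Actin-CreER) were grown as embryoid bodies, then induced for 40 h with VEGF, Activin A and BMP4 and collected at day 4. At day 2 they received 200 nM 4-OHT in the solvent THF, which deletes *Brg1*, or THF alone (control). ChIP-seq of H3K27ac and of Suz12 was made in 2 control and 2 4-OHT-treated replicates, and of H3K27me3 in 3 and 3. A further 3 FLAG ChIP-seq replicates, labelled with normal Brg1 levels, report Brg1 itself. The labels give these the same genotype, whereas the study's methods name ESCs that carry a FLAG-tagged *Brg1* allele. All treated and control cultures share 1 ESC line and the Cre, which acts in every cell and not only in mesoderm, and the control received no 4-OHT, so the drug and the deletion cannot be told apart here.

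The 17 lists used give chromosome, start and end of enriched regions without a score, so the read depth of each sample is unknown. What can be measured at a gene is the covered length, the number of bases of a window that lie inside listed regions. H3K27ac lists held 32161 to 41062 regions, H3K27me3 lists 6787 to 16959 and Suz12 lists 2913 to 4016. FLAG replicates 1 and 2 held 8021 and 8257 regions, whereas replicate 3 held 192 and stood apart. Replicate 1 of H3K27me3 also stood apart in both conditions, with narrow regions of 250 bp median width against 350 to 425 bp in the other replicates. In control, 8 of 9 primitive streak and mesoderm marker genes carried H3K27ac within 5 kb of the TSS, against 0 of 3 neural genes and 1 of 4 cardiomyocyte genes. Of the pluripotency genes 4 of 6 carried it, and of the definitive endoderm genes 2 of 4. Among the blood genes 2 of 5 did, and among the extraembryonic endoderm genes 1 of 6. The summed H3K27ac length over the mesoderm markers was 35136 and 47435 bp in control against 26363 and 36285 bp with 4-OHT, with overlap. Over the definitive endoderm markers it was lower, at 5125 and 7225 bp against 2075 and 2775 bp, and over the pluripotency markers higher, at 14844 and 12969 bp against 16571 and 16421 bp. The blood markers were lower, at 2725 and 3000 bp against 775 and 1525 bp, and so were the cardiomyocyte markers, at 1050 and 1575 bp against 0 and 0 bp. The extraembryonic endoderm markers overlapped, at 150 and 176 bp against 625 and 0 bp. The part of these shifts in the H3K27ac results was not tested. The lists cannot check the deletion of *Brg1* itself, because they hold no reads over the floxed exons. As these are bulk cultures, fewer cells carrying a mark and less of the mark per cell cannot be told apart, nor can 2 marks on the same chromatin be told from marks in different cells.

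Brg1 was listed at *Gata4* and *Gata6* and at no other member. A Brg1-bound region is a merged region listed in at least 2 of the 3 FLAG replicates, and 2390 exist in the genome. Within 50 kb of the TSS, 9.32% of protein-coding genes held at least 1, as did 2 of the 6 GATA genes. *Gata4* held 6, a number that 7 of the 22367 genes reached or passed, *Gata4* included. *Gata6* held 1. Regions of a FLAG list can lie as little as 225 bp apart. Close regions were counted singly, and no count of joined regions was made. The 6 at *Gata4* lay inside 3 H3K27ac regions. The Brg1-bound counts rested on FLAG replicates 1 and 2. Without either of them, *Gata4* held 1 in place of 6 and *Gata6* none, and 0.765% and 0.617% of genes then held at least 1. Within 5 kb of the TSS none of the 6 genes held one, against 2.11% of all genes. With the windows set around every annotated transcript start, *Gata4* held 3 and was the 1 member bound, against 2.75% of genes.

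*Gata4* occupies chr14:63817759-63890529 of mm9, minus strand, and its annotation carries 6 distinct transcript starts. The outermost start, used here as the TSS, belongs to transcript Gata4-006. Transcripts Gata4-001 and Gata4-002, with a further one beside them, start 26.4 kb farther downstream, and 4 of the 6 Brg1-bound regions lay around these internal starts. In relation to the start of Gata4-002, Brg1-bound regions lay 1.11, 2.07 and 2.52 kb upstream and 5.47 kb downstream, the last in an intron. The remaining pair was intergenic, 34.1 and 34.8 kb upstream of the outermost TSS. In FLAG replicates 1, 2 and 3 the region at 34.8 kb covered 550, 525 and 150 bp and was the only one of the 6 listed in all 3 replicates. The other 5 covered between 125 and 375 bp in replicates 1 and 2 and were not listed in replicate 3. None of the 6 overlapped an annotated exon or untranslated region.

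The sequences below show 3 of these *Gata4* elements, 1 at each of the places that Brg1 occupied, so that the intergenic element, the internal promoter and the intronic element can be compared. Each is the 300 bp around the centre of a Brg1-bound region, read from the mm9 plus strand. On that strand *Gata4* itself runs from right to left. The region at the internal promoter element is 250 bp wide, so its window runs past both ends. Capitals mark a GATA site, taken as the letters GATA with A or T before and A or G after them, of which AGATAG is one, on either strand.

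Gata4 intergenic element, chr14:63925151-63925450, 34.8 kb upstream: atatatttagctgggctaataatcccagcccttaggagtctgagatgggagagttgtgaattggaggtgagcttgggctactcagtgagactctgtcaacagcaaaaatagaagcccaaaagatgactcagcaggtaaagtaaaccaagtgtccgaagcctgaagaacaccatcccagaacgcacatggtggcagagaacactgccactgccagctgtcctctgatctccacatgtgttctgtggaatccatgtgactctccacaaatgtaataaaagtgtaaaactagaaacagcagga

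Gata4 internal promoter element, chr14:63866026-63866325, 2.07 kb upstream of the Gata4-002 start: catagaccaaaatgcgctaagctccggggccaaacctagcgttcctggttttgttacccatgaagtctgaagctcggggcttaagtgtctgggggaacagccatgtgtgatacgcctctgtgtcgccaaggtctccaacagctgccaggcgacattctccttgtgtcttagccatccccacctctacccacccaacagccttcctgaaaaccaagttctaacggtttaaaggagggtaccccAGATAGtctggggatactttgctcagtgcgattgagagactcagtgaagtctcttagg

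Gata4 intronic element, chr14:63858488-63858787, 5.47 kb downstream of the Gata4-002 start: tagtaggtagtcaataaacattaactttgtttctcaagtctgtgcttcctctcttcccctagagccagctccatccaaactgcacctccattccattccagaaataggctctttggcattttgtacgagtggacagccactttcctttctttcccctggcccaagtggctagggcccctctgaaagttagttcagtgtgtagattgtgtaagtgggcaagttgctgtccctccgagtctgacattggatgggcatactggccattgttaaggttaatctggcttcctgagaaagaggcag

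Such a site occurred in 1 of the 6 *Gata4* windows, the AGATAG of the internal promoter element, and not in the window of the *Gata6* region. Over all 2390 Brg1-bound regions, 43.6% of such 300 bp windows held at least 1. At the centres of distal H3K27ac regions, those over 2.5 kb from any TSS and listed in both control replicates, 3 of 11 windows at GATA genes held one, against 41.3% of 13559 in the genome. The *Gata6* regions 12.2 kb upstream and 6.19 kb downstream each held 1. A *Gata1* region 22.3 kb upstream held 3 copies of TGATAA within a short stretch of repeated ATAA units. A match is a description of the letters, and a window without one says nothing of GATA factor binding.

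Around *Gata4*, H3K27ac was lower after 4-OHT at each of the 3 elements where Brg1 was bound. Within 50 kb of the TSS, H3K27ac covered 7225 and 8550 bp in control against 4125 and 6475 bp with 4-OHT, and both treated values lay below both control values. The mean fell from 7887.5 ± 937 to 5300 ± 1661.7 bp (SD, n = 2 each), with a ratio of means of 0.672 and p = 0.333 by a two-sided exact permutation test, the smallest value that 2 against 2 allow. With 2 against 2 this test cannot reach 0.05, so the call used below is that the groups do not overlap. *Gata4* was the 1 of 6 members so called lower, and none was higher, where 20% of the 17242 genes tested were lower and 39.7% higher. The call rested on where the window lay. The groups also stayed apart when each list was rescaled to the same total length, as they did at 16.8% of genes. When the window was widened to surround every annotated start, it ran past the 3′ end of the gene, and the values became 14250 and 12450 bp in control against 14000 and 14225 bp with 4-OHT.

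The strongest of these differences lay at the intergenic element. Its H3K27ac region, from 63924151 to 63925900 on chromosome 14, covered 1550 and 1750 bp in control against 500 and 850 bp with 4-OHT. Both Brg1-bound regions at 34.1 and 34.8 kb upstream lay inside it, and neither H3K27me3 nor Suz12 was listed there in any control replicate. The control mean of 1650 bp was 2.44 times the treated mean of 675 bp. These groups too stayed apart after rescaling.

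The internal promoter region, from 63863626 to 63867350, held 3 Brg1-bound regions. It covered 3325 and 3725 bp in control against 2175 and 3250 bp with 4-OHT, a ratio of 0.770. In control it also held 0, 700 and 1675 bp of H3K27me3 and 500 and 1450 bp of Suz12, so the internal promoter carried all 3 marks. The region around the intronic element, from 63857726 to 63860800, takes in an exon, held 1 Brg1-bound region and covered 2350 and 3075 bp in control against 1200 and 2250 bp with 4-OHT, a ratio of 0.636. Both regions were lower as listed, but the groups overlapped once the lists were rescaled. A short H3K27ac region 1.90 kb downstream of the outermost TSS was listed only after 4-OHT, over 250 and 125 bp. It made *Gata4* the 1 member called higher within 5 kb of the TSS, a call that 39.8% of 12031 genes tested shared, while 12.6% were lower and none of the members was. Around the internal start of Gata4-001 the direction was the opposite, with 4491 and 5441 bp in control against 2875 and 4391 bp with 4-OHT, which no longer stayed apart after rescaling.

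*Gata6* (chr18:11052508-11085633, plus strand) carried the most H3K27ac of the family within 50 kb of the outermost TSS. Around every annotated start *Gata4* covered more, with a control mean of 13350 bp within 50 kb and 4966 bp within 5 kb against 10825 and 2758 bp at *Gata6*. These windows are unlike in size. *Gata4* has 6 distinct starts, the last 58.1 kb downstream, and *Gata6* has 1, so more sequence was read at *Gata4*. Within 50 kb of its TSS *Gata6* covered 8800 and 12850 bp in control against 4575 and 9200 bp with 4-OHT. The means were 10825 ± 2864 and 6887.5 ± 3270 bp (SD, n = 2), a ratio of 0.636 with exact permutation p = 0.667. Each 4-OHT replicate was below the control of the same number, but 4-OHT replicate 2 exceeded control replicate 1, so the groups overlapped. Without control replicate 1, or without 4-OHT replicate 2, *Gata6* was lower without overlap as well, as were 31.5% and 24% of genes. In control *Gata6* lay above *Gata4* without overlap, followed by *Gata3* at 3325 ± 495 bp. *Gata1* at 1537.5 ± 583, *Gata5* at 1475 ± 318 and *Gata2* at 637.5 ± 619 bp came last. *Gata1* and *Gata5* overlapped. Both *Gata2* values, 1075 and 200 bp, lay below both of *Gata1* (1950 and 1125 bp) and of *Gata5* (1700 and 1250 bp). The spans of mean ± SD still overlapped.

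**Figure D1:**
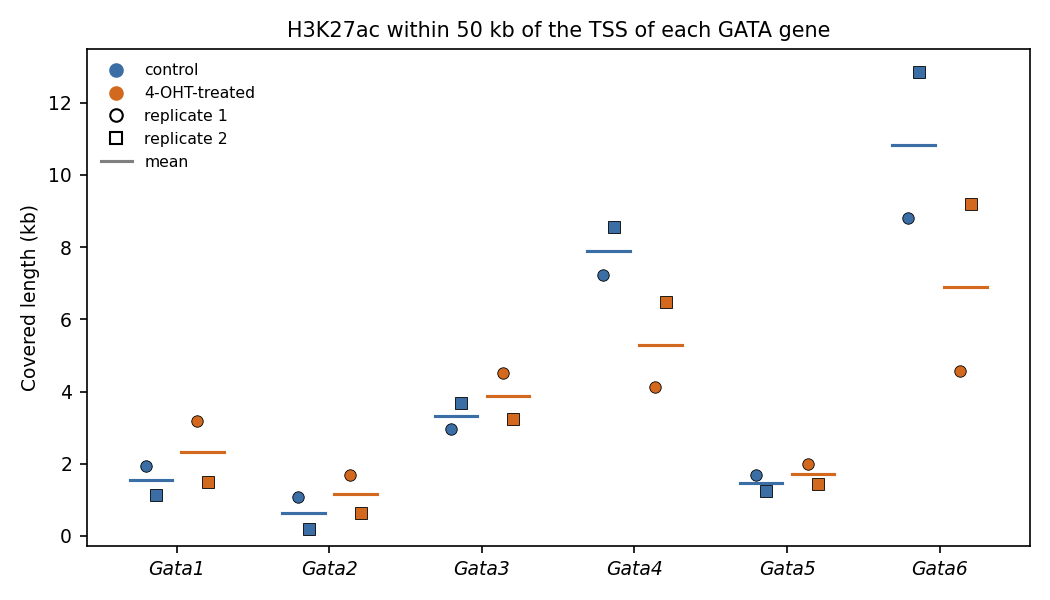
Length covered by H3K27ac regions within 50 kb of the TSS (kb) for each GATA gene. Points are single control (blue) and 4-OHT-treated (orange) replicates, with a marker shape per replicate number, and bars are means of 2. *Gata4* and *Gata6* carry the most H3K27ac, and only at *Gata4* do both treated points, 4125 and 6475 bp, lie below both control points.

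The difference at *Gata6* was unequal along the locus. At the promoter, from 11051676 to 11053800, H3K27ac covered 1400 and 2125 bp in control against 900 and 1925 bp with 4-OHT, and the groups overlapped. The widest region, 6.19 kb downstream and 4750 bp long, covered 3250 and 4500 bp in control against 2550 and 4450 bp with 4-OHT, again with overlap. In the 3 regions farther away the treated values lay below the control values without overlap.

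The Brg1-bound element of *Gata6*, 44.7 kb downstream of its TSS and past its 3′ end, covered 1775 and 2100 bp in control against 800 and 1150 bp with 4-OHT, a ratio of 0.503. FLAG replicates 1 and 2 covered 125 and 25 bp of it at the position they shared, so that the Brg1 evidence here is narrow. A further 5 FLAG regions near *Gata6* were listed in 1 replicate each. Another pair of H3K27ac regions, singled out after their values were seen, carried no Brg1-bound region. The one 12.2 kb upstream fell most of the *Gata6* regions, from 1525 and 2000 bp to 175 and 800 bp, with a control mean 3.62 times the treated mean. The other, 25.5 kb downstream in an intron, covered 850 and 1875 bp in control against 150 and 800 bp with 4-OHT. After rescaling the groups at 12.2 and 44.7 kb stayed apart and those at 25.5 kb overlapped.

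**Figure D2:**
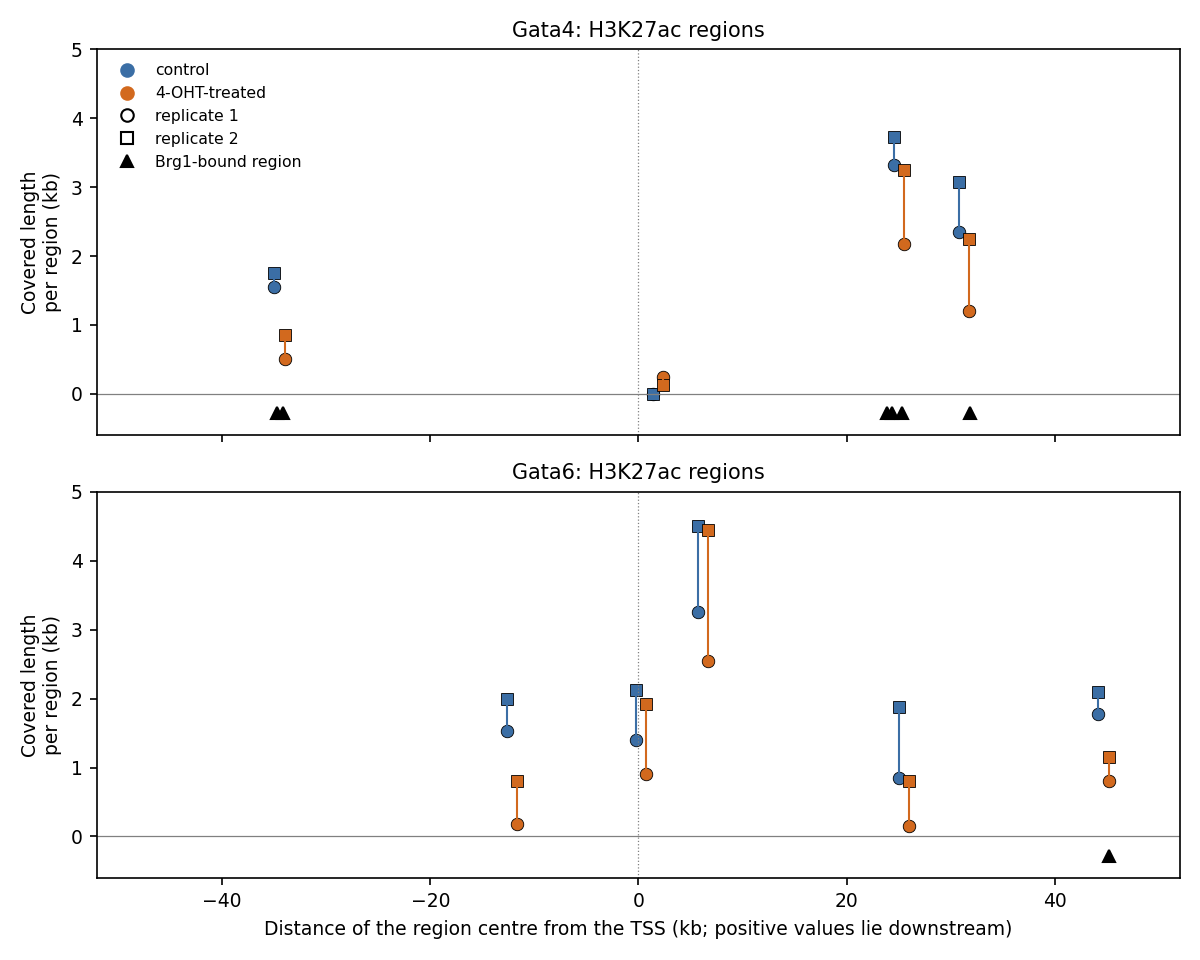
Length of each H3K27ac region (kb) against the distance of its centre from the TSS (kb, positive downstream) at *Gata4* and *Gata6*, for regions listed in both replicates of a condition. Circles and squares are replicates 1 and 2 in control (blue) and 4-OHT-treated (orange) cultures, and triangles mark Brg1-bound regions. The 3 *Gata4* elements with triangles are lower after 4-OHT, whereas at *Gata6* the separated regions lie 12.2 kb upstream and 25.5 and 44.7 kb downstream.

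Across the family, 19 merged H3K27ac regions were listed in both control replicates. Of these, 7 were lower after 4-OHT without overlap, namely 3 at *Gata4*, 3 at *Gata6* and 1 at *Gata1*, and 2 were higher. In the genome 40.5% of 26203 such regions were lower and 24.3% higher. After rescaling 4 were lower and 3 higher, against 37.5% and 32.3%. The counts also moved with single replicates. Without control replicate 1, 10 were lower and 7 higher, against 48% and 37%, and without 4-OHT replicate 2, 10 were lower and 8 higher, against 46.8% and 37.6%. The choice of regions by the control lists favours falls. For regions listed in both replicates of either condition the genome's shares were 34.2% lower and 32.1% higher, and the members gave 7 and 3 of 20. The 4 regions with a Brg1-bound region were all lower, and so were 69.5% of the 1505 such regions in the genome. After rescaling 2 of the 4 were lower, against 61.9% of the 1505. Leaving out 1 replicate cannot undo a call made without overlap, so the replicates left out do not test these 4.

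The blood GATA genes carried little H3K27ac, and it was not lower at any of them in total. *Gata2* (chr6:88143885-88157024, plus strand) covered 1075 and 200 bp within 50 kb in control against 1700 and 625 bp with 4-OHT. Nearly all of this lay in an intronic region 9.95 kb downstream of the TSS, which measured 1075 and 200 bp in control against 1325 and 625 bp with 4-OHT. The groups overlapped, although each treated replicate exceeded the control of its number. Its 1 protein-coding neighbour within 50 kb, *Dnajb8*, starts 28.4 kb downstream.

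*Gata3* (chr2:9778705-9811661, minus strand) covered 2975 and 3675 bp within 50 kb in control against 4500 and 3250 bp with 4-OHT, with overlap. Its widest H3K27ac region surrounded the start of transcript Gata3-001, 11.4 kb downstream of the outermost TSS. That region covered 1375 and 1150 bp in control against 2225 and 1550 bp with 4-OHT, a mean of 1262.5 against 1887.5 bp, and the groups did not overlap as listed or after rescaling. Within 5 kb of the Gata3-001 start the values were 2675 and 2625 bp in control against 3625 and 3175 bp with 4-OHT. *Gata3* was thus higher at its internal promoter on both scales, whereas the fall at the internal starts of *Gata4* overlapped after rescaling. Over every annotated start with 5 kb on each side, *Gata3* was called higher, as were 39.5% of genes, while 13.8% were lower. The start of *4930412O13Rik* lies inside *Gata3*, 8.78 kb downstream of its TSS, that of *9230102O04Rik* at 0.494 kb and that of *Gm13256* at 12.8 kb. The widest H3K27ac region overlaps *Gm13256* too. The H3K27ac there therefore cannot be assigned to *Gata3* alone.

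*Gata1* (chrX:7536386-7555197, minus strand) had no region of any mark within 5 kb of any of its 3 starts or in its gene body. Within 50 kb H3K27ac covered 1950 and 1125 bp in control against 3175 and 1500 bp with 4-OHT, with overlap. This H3K27ac lay at the neighbouring *Hdac6* promoter, in an intergenic group 22.3 to 24.1 kb upstream and in *Glod5*. The widest region of that group covered 350 and 200 bp in control against 1025 and 0 bp with 4-OHT, so that 1 treated replicate held all of it. The other neighbour within 50 kb, *Eras*, starts 49.5 kb downstream. The *Glod5* intron region, 35.5 kb upstream, was the only region of the family listed in both control replicates and missing from both treated ones, with 25 and 175 bp in control. For comparison, genome regions of both control lists were merged over those lists alone. Of those over 2.5 kb from any TSS, 33.1% of 13914 were missing from both treated lists, and of those nearer, 6.04% of 13418.

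*Gata5* (chr2:180059838-180069404, minus strand) had a single H3K27ac region within 50 kb, at the promoter of its neighbour *BC066135*, 44.5 kb away. It covered 1700 and 1250 bp in control against 2000 and 1450 bp with 4-OHT, with overlap. The gene itself held none, nor did its nearest neighbour *Gm14318*, whose start lies 1.84 kb downstream.

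Outside *Gata1*, every member lay in Polycomb chromatin. H3K27me3 was listed within 5 kb of the TSS in at least 2 of 3 control replicates at 5 of 6 genes, against 14.2% of all genes, and Suz12 in both control replicates at the same 5, against 6.04%. H3K27ac was listed there in both control replicates at *Gata6* only, against 47.7% of genes. *Gata6* alone therefore carried all 3 marks in that window, as 0.921% of genes did. Around every annotated start, *Gata3*, *Gata4* and *Gata6* did, against 1.39% of genes.

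The H3K27me3 lengths within 5 kb were largest at *Gata3* and *Gata2*. At *Gata3* they were 7701, 9301 and 8876 bp in control replicates 1 to 3 against 6476, 8626 and 7451 bp with 4-OHT. *Gata2* covered 3075, 9326 and 8735 bp in control against 1975, 8010 and 8260 bp with 4-OHT. *Gata6* covered 3118, 8051 and 8726 bp and then 2068, 7993 and 7826 bp. At these 3 genes every treated replicate was below the control of its number, but the groups overlapped.

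*Gata4* and *Gata5* had shorter lengths at the TSS. *Gata4* covered 3722, 4772 and 4347 bp in control against 1222, 3347 and 4547 bp with 4-OHT, so that replicate 3 went up while the others went down. *Gata5* covered 2725, 4675 and 4500 bp in control against 1125, 4275 and 3925 bp with 4-OHT, lower in 3 of 3 pairs. In control, *Gata3* at 8626 ± 829 bp (SD, n = 3) and *Gata4* at 4280 ± 528 bp bounded no clear order, since *Gata2* at 7045 ± 3451 bp and *Gata6* at 6632 ± 3062 bp spread across both, and *Gata5* at 3967 ± 1079 bp lay within the spread of *Gata4*.

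None of the 5 genes was called lower or higher in H3K27me3 within 5 kb, whereas 12% of 4204 genes tested were lower and 0.19% higher. The exact permutation p-values were 0.2 at *Gata3*, 0.3 at *Gata4* and 0.5 at the others, where 3 against 3 can give no less than 0.1. Same-numbered replicates were paired for this mark, and with the replicate block *Gata2*, *Gata3*, *Gata5* and *Gata6* were lower in every pair, against 44.1% of genes (exact sign-flip permutation test, p = 0.25, the smallest 3 pairs allow). Without replicate 1 of both conditions the same 4 genes were lower without overlap, against 36% of genes. The direction depended on scale, because the 4-OHT lists covered 56.5%, 81.7% and 76.0% of the total length of their paired control lists. Rescaled to equal totals, *Gata2*, *Gata3* and *Gata6* were instead higher in every pair, as 14.6% of genes were, and *Gata3* was higher without overlap (exact permutation test, p = 0.1), as 4.92% were. The log2 ratio of means, with a pseudocount of 25 bp, was between -0.15 and -0.49 at the 5 genes as listed, where the median gene tested stood at -0.62. After rescaling the median gene stood at -0.24, a shift of scale that also moved the H3K27ac median within 5 kb from 0.15 to 0.25 and the Suz12 median from 0.49 to 0.38. On either scale the 5 genes lay above the median gene.

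**Figure D3:**
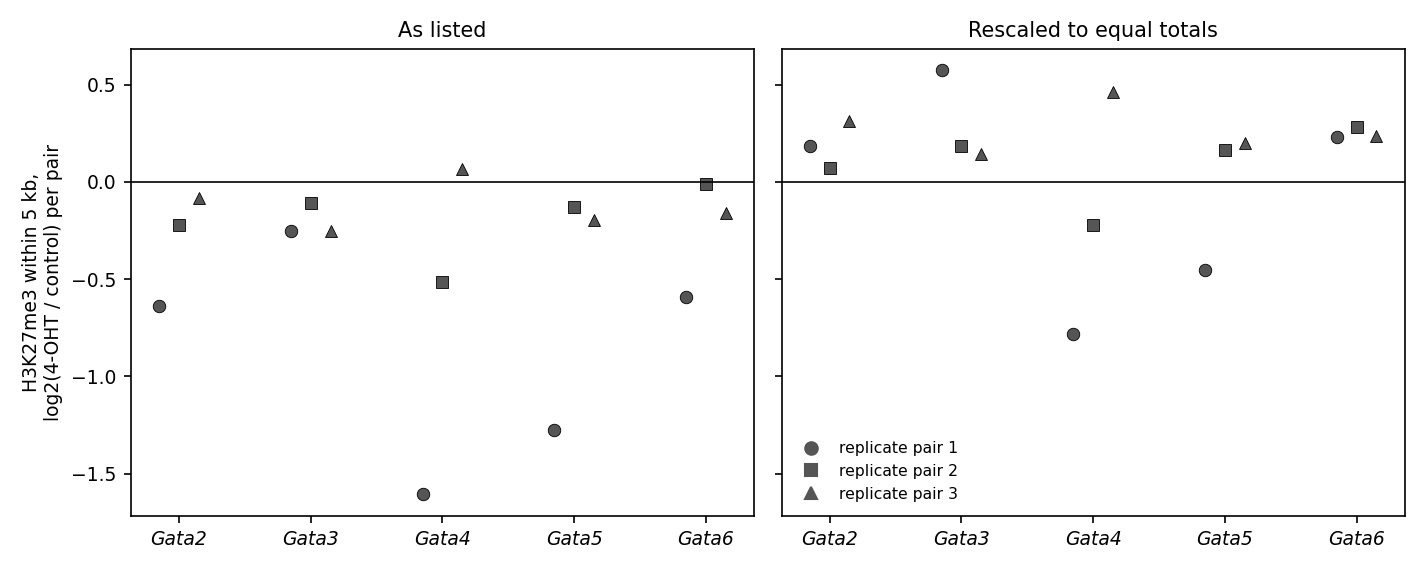
The log2 ratio of H3K27me3 length within 5 kb of the TSS, 4-OHT-treated over control, in each same-numbered replicate pair, as listed and after rescaling every list to the same total length. As listed, 14 of 15 points lie below 0, and after rescaling *Gata2*, *Gata3* and *Gata6* lie above 0 in all 3 pairs, while *Gata4* and *Gata5* have points on both sides.

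At the members, 19 merged H3K27me3 regions were listed in at least 2 control replicates, and 3 of them were lower after 4-OHT without overlap, against 14.3% of 6335 such regions in the genome. After rescaling none of the 19 was lower and 2 were higher, against 7.94% and 5.73%. Without control replicate 1, 9 of the 19 were lower, against 40.4%. Of the 3, only the first below is named by its width, and the others were singled out after their values were seen. *Gata4*'s widest H3K27me3 region, from 63875701 to 63886000, lies in an intron between the outermost and the internal starts. It covered 8450, 9475 and 8975 bp in control against 5950, 6525 and 5250 bp with 4-OHT, so that all 3 treated values lay below all 3 control values. The ratio of means was 0.659 (exact permutation test, p = 0.1). After rescaling the groups overlapped, and 2 of 3 pairs were lower. A short region 1.18 kb upstream of the outermost *Gata4* TSS covered 1525, 300 and 400 bp in control against 175, 0 and 0 bp with 4-OHT, with 3 of 3 pairs lower also after rescaling. A region 8.24 kb upstream of *Gata3* covered 150, 425 and 800 bp in control against 125, 0 and 0 bp with 4-OHT. By contrast, H3K27me3 within 5 kb of the internal start of Gata4-001, where Brg1 was bound, covered 2810, 5885 and 7935 bp in control against 2685, 6826 and 7751 bp with 4-OHT, a ratio of 1.04. The groups overlapped there.

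*Gata2* lay almost whole under 1 H3K27me3 region of 16025 bp, which covered 4725, 16025 and 15350 bp in control against 2925, 13800 and 14425 bp with 4-OHT. Replicate 1 listed it in pieces in both conditions. The widest regions at *Gata3*, *Gata5* and *Gata6* measured 7175, 5425 and 6225 bp and overlapped between conditions. At *Gata6* the widest one, 3.51 kb downstream, covered 1200, 5200 and 5900 bp in control against 1275, 4925 and 5975 bp with 4-OHT, a ratio of 0.990.

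Suz12 followed a different course, with *Gata4* as the 1 member called lower within 5 kb. *Gata4* covered 3147 and 3397 bp in control against 2347 and 2947 bp with 4-OHT, a ratio of 0.809 with exact permutation p = 0.333. Of 2290 genes tested 5.76% were lower and 32.1% higher, and no member was higher. Its widest Suz12 region, 4625 bp long and 3.92 kb downstream of the TSS, covered 4250 and 4500 bp in control against 3225 and 4175 bp with 4-OHT, and stayed lower after rescaling. Of 1957 Suz12 regions in both control lists, 13.8% were lower as listed and 28.4% after rescaling. In windows of 2.5 or 10 kb around the TSS, in place of 5 kb, *Gata4* was not called. At the internal starts of *Gata4* Suz12 was not lower, with 2700 and 5700 bp in control against 3875 and 6375 bp with 4-OHT.

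At *Gata3*, Suz12 covered 4401 and 5826 bp in control against 2126 and 4926 bp with 4-OHT, lower in both pairs but with overlap. *Gata2* covered 6685 and 7385 bp and then 6260 and 7760 bp. *Gata6* covered 5050 and 7425 bp and then 5075 and 7625 bp. *Gata5* covered 1975 and 1725 bp in control against 1950 and 1925 bp with 4-OHT. The groups overlapped at these 4 genes as listed, and rescaling placed *Gata2* and *Gata3* beside *Gata4* as lower, against 13.3% of genes. Over the 5 members the median log2 ratio was -0.01, where all genes tested stood at 0.49.

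**Figure D4:**
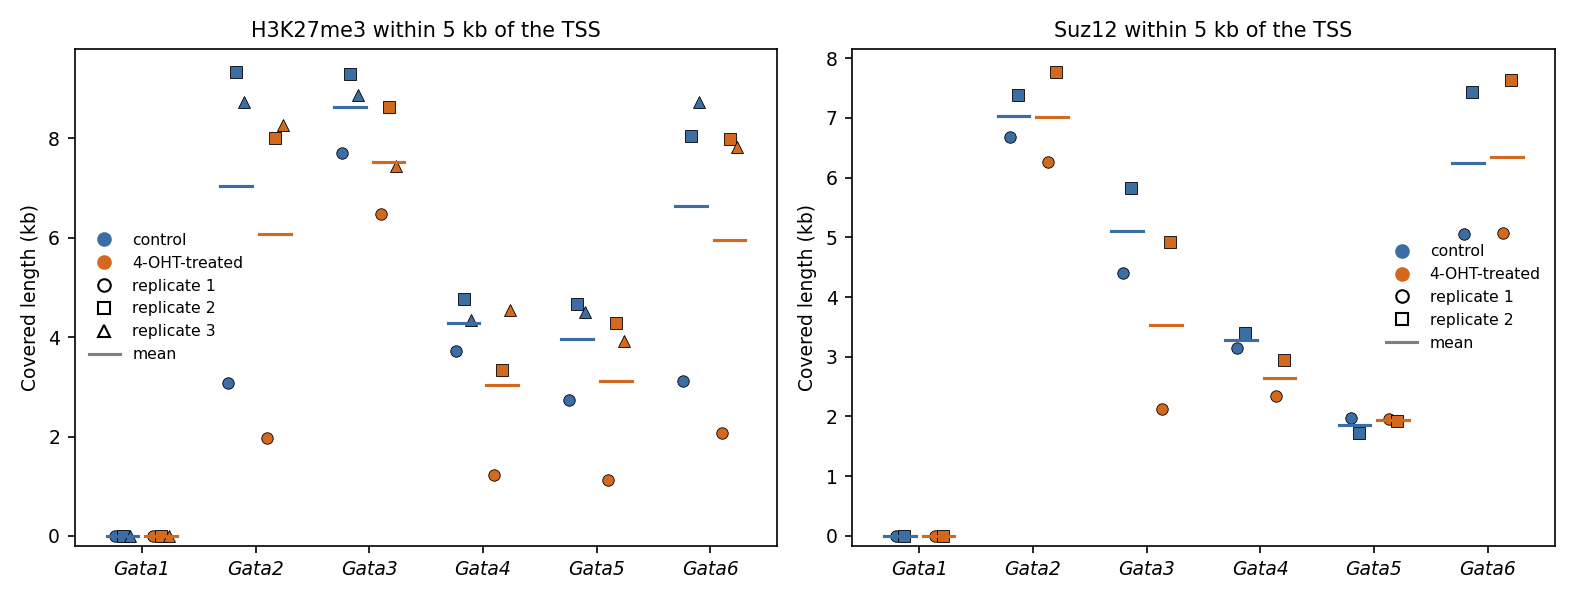
Length covered by H3K27me3 (left) and Suz12 (right) regions within 5 kb of the TSS (kb) for each GATA gene. Points are single control (blue) and 4-OHT-treated (orange) replicates with a marker shape per replicate number, and bars are means of 3 and 2. *Gata1* is at 0 in every list, replicate 1 of H3K27me3 is the lowest control and the lowest treated point at each other gene, and only *Gata4* has both treated Suz12 points below both control points.

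For each member with any of these marks at the TSS, the 3 genes most like it were found by the mean absolute difference in covered length within 5 kb over the 14 histone mark and Suz12 lists. For *Gata2* the nearest were *Prdm16*, *Foxc1* and *Insm1*, at 278 to 373 bp. *Lhx2*, *Tbx15* and *Tal1* were nearest to *Gata3*, at 312 to 454 bp. *Igf2*, *Lyl1* and *Dnajc22* were nearest to *Gata4*, at 340 to 360 bp, and *Tmem163*, *Bean1* and *Fam43b* to *Gata5*, at 184 to 204 bp. In bp, *Gata6* lay farthest from its nearest genes, *Irx3*, *4930412O13Rik* and *Gsc*, which differed by 766 to 999.9 bp. It also had the largest mean length over these lists, 5235 bp against 2441 bp at *Gata4*, and the differences were not scaled to length.

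Genes that work with GATA factors or lie downstream of them were read in the same windows. Of 14 genes for partner proteins, 9 had H3K27ac within 5 kb in some list, and of these 5 were lower and 1 higher. The median log2 ratio was -0.83 against 0.15 over all genes. That median is the value of *Tbx20*, with 0 and 350 bp in control against 0 and 175 bp with 4-OHT, with overlap. Some other partners were in neither 4-OHT list, so their ratios rest on the pseudocount of 25 bp. Of all genes tested in this window 12.6% were lower and 39.8% higher. *Zfpm1*, which encodes the GATA cofactor FOG1, covered 4825 and 6550 bp in control against 1925 and 1725 bp with 4-OHT. *Runx1*, a regulator of blood formation, covered 2075 and 2375 bp and then 100 and 850 bp. *Smad1*, a transducer of BMP signals, covered 3059 and 3734 bp and then 2034 and 2834 bp. *Ldb1*, a bridging protein of GATA complexes, was the 1 higher, with 4047 and 4222 bp in control against 5572 and 5297 bp with 4-OHT.

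Most known targets had no H3K27ac near the TSS at day 4. Of 12 targets in blood and endothelium 4 had any, 1 of them lower and 3 higher, and of 14 targets in heart and endoderm 3 had any and none was called, beside the same 12.6% lower and 39.8% higher over all genes. Among the blood targets *Hhex*, a homeobox gene of endothelium and endoderm, covered 25 and 25 bp in control against 675 and 625 bp with 4-OHT. *Epor*, the erythropoietin receptor gene, was in neither control list and covered 250 and 375 bp after 4-OHT. *Nfe2*, an erythroid transcription factor, covered 75 and 250 bp in control and was in neither treated list. In the 50 kb window 9 blood and endothelium targets had H3K27ac, 3 lower and 5 higher. Of the heart and endoderm targets 9 had it there, 1 lower and 3 higher. Over all genes 20% were lower and 39.7% higher in that window. The largest difference among the targets was at *Kdr*, with 8450 and 15150 bp in control against 2625 and 4325 bp with 4-OHT. In H3K27me3 no gene of the partner and target lists was called in either direction within 5 kb. Within 50 kb, where 15.5% of 8533 genes were lower, 3 blood targets (*Klf1*, *Epor* and *Hba-x*) and 1 heart and endoderm target, *Foxa2*, were lower. *Foxa2*, an endoderm transcription factor gene, covered 23250, 27800 and 22000 bp in control against 11875, 16750 and 15050 bp with 4-OHT. Of the 5 genes for other proteins with GATA-type zinc fingers, 4 had H3K27ac within 5 kb, of which *Trps1* and *Gatad2a* were lower and *Gatad1* and *Zglp1* higher, and none had H3K27me3 or Suz12.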

How the data were processed

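ChIP-seq libraries of day 4 cultures were deposited as 17 lists of enriched regions, and the 11 input samples have no list here. Per the submitters' processing notes, Bowtie and mm9 were used by the authors (versions not given in the sources used here). The study names an input-corrected Poissonian model for Brg1. Its FLAG lists carry the threshold 1e-06, with at least 2-fold over input per the labels, and the other lists carry 1e-12, with a model not given in the sources used here. All region edges are multiples of 25 bp. The deposited values are region positions only, with no count, signal or score per region, so depth, counting error and the height of enrichment are unknown and a region just under the threshold is missing. Regions were called per replicate, not pooled.

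Covered length per window was computed with Python 3.11.15, NumPy 2.4.6 and SciPy 1.17.1, and plotted with Matplotlib 3.10.9. Coordinates are 1-based, and any overlap of 1 bp counted. A gene was tested where any list of the mark covered its window. A gene was called where all 4-OHT replicates lay below or above all controls, beside a two-sided exact permutation test, which with 2 against 2 cannot give less than 0.333. Nothing in the labels says whether cultures were independent beyond the word replicate, so p-values measure the spread between these samples. The steps were tested on simulated data.

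Replicate numbers are shared between conditions. Deviations of same-numbered samples from their group means correlated at 0.908, 0.819 and 0.763 for H3K27me3, over genes tested. Differently numbered ones correlated too, at 0.647 for control 3 with 4-OHT 2 and 0.583 for control 2 with 4-OHT 3. Replicate 1 correlated negatively with every other number, so the pairing of replicates 2 and 3 is less clear. The H3K27me3 replicates were taken as pairs. With 2 pairs in each, H3K27ac (0.440) and Suz12 (0.505) were not.

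The GATA genes and the gene lists were chosen with earlier results of these data known. Genes named besides the 6 members are their neighbours within 50 kb, the 3 genes nearest in covered length over 14 lists with a TSS over 10 kb away, and genes of the lists that were called, at most 4 per list. *Tbx20* is named because its value is the median of its list. Regions named are the widest, those with Brg1 and those missing from one condition, unless stated. Alternatives were rescaling each list to equal total length, other windows, every annotated start, regions of at least 100 bp, replicates left out and the replicate block. Joining regions within 1 kb, leaving out replicate 1 of H3K27me3 in both conditions, the block after rescaling, and the counts of merged regions under each setting were chosen after seeing the data.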

Additional observations from a re-analysis of the deposited data

How the results depend on the processing

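Of 151 alternatives of the member counts, 107 were within 1.5 times the reported count and 44 were not. Of 253 for single genes, 238 moved by less than the replicate spread, 12 moved by more and 3 reversed. Only a gene called as reported could count as reversed. A change of sign at a gene not called was counted by its size alone. Such changes occurred after rescaling for H3K27me3 within 5 kb at *Gata2*, *Gata3*, *Gata5* and *Gata6*. The 3 were *Gata4* with every annotated start in place of the outermost, where 4-OHT minus control became -1145.5 bp for H3K27ac within 5 kb, 762.5 bp for H3K27ac within 50 kb and 300 bp for Suz12 within 5 kb. Within 50 kb of the outermost TSS H3K27ac was lower, so that rise lay in the sequence added to the window. Within 5 kb of the Gata4-001 start H3K27ac covered 4491 and 5441 bp in control against 2875 and 4391 bp with 4-OHT. Suz12 there covered 2700 and 5700 bp in control against 3875 and 6375 bp with 4-OHT. Why the windows differ was not tested.

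For H3K27ac within 5 kb, 0 members were lower as reported, 1 with the replicate block and 0 to 1 with a replicate left out. Within 50 kb, 1 member was lower as reported, 0 with every annotated start, 2 with the replicate block on either scale and 1 to 2 with a replicate left out. None was higher there as reported, against 1 after rescaling and 2 with the window doubled. The replicate block gave 3 higher, the block after rescaling 4 and a replicate left out 0 to 4. Of all genes 49.6% were higher there after rescaling, 50.4% with the block and 57.3% with the block after rescaling. Lower there were 23.8% with the block and 20.2% with the block after rescaling. Within 5 kb 15.9% were lower with the block. No share was computed for the doubled window.

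For H3K27me3 within 5 kb, 0 were lower as reported, 4 with the replicate block, 4 without replicate 1 of both conditions, 2 with regions within 1 kb joined and 0 to 4 with a replicate left out. Higher were 0 as reported, 1 after rescaling and 3 with the block after rescaling. For Suz12, 1 was lower as reported, 3 after rescaling, with or without the block, 2 with the replicate block, 0 with every annotated start or the window halved or doubled, and 1 to 3 with a replicate left out. Higher were 0 as reported, 1 with the block and 0 to 2 with a replicate left out. Of all genes, H3K27me3 was lower at 44.1% with the block and 36% without replicate 1 of both conditions. It was higher at 4.92% after rescaling and 14.6% with the block after rescaling. Suz12 was lower at 13.3% of genes after rescaling, 20.3% with the block after rescaling and 12.2% with the block as listed. It was higher at 39.8% with the block as listed. The H3K27ac and Suz12 numbers gave only 2 pairs each, so their blocked counts rest on shared numbers.

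Brg1-bound members within 5 kb numbered 0 as reported and 1 with any FLAG list or every annotated start. Within 50 kb they numbered 2 as reported, 1 with all 3 FLAG lists or the window halved and 1 to 2 with a replicate left out. Members with H3K27ac within 5 kb in control numbered 1, and 3 with every annotated start or the window doubled. Of all genes 47.7% carried it, and 50.1% around every annotated start. Without scores or reads, a region under the threshold of 1 list cannot be told from one that is absent.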
